A study of Mus musculus with 12 samples.

Results

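Nr2f1, also known as COUP-TFI, was followed through every array of a comparison of rostral with caudal mouse neocortex at E13.5, a stage of embryonic development. Its members were all probes that the platform annotation assigns to the symbol Nr2f1, which gave 2 of 21998 probes and 1 of the 11490 named genes among 14418 features tested. Probe A is CG_Mm_3001348_1 and probe B is CG_Mm_EXT_3105699_1. Tissue came from embryos of the inbred strain C57 and the outbred strain MF1, with 3 pools per strain, and no treatment or genotype is named for either strain. The neocortex was cut into 3 parts along its length, of which the rostral and the caudal parts were used. Each pool supplied rostral and caudal RNA, and both samples were hybridised together on 2 arrays with the dyes Cy5 and Cy3 exchanged, so the 12 arrays represent 6 pools. Per the labels a pool held 3 embryos, while the design text gives a lower minimum, and both hemispheres of each embryo were used. Per the design text the embryos of a comparison shared a litter and the cDNA was amplified before labelling. The pool is the replicate, except in the limma fit on single arrays that is given beside the main fit. No source used here says that the 3 pools of a strain were from separate litters, so p-values measure only how these pools varied, which may be technical in part.

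Nr2f1 encodes an orphan nuclear receptor, a transcription factor that binds DNA as a dimer and can repress or activate its targets. In the embryonic mouse cortex its transcript is known to form a gradient, high caudally and laterally and low at the rostral pole, in dividing progenitors and in the neurons they produce. Mice that lack it in the cortex are known for frontal and motor areas that expand caudally at the expense of the sensory areas. FGF signals from the rostral midline are known to repress it.

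Values are log2 ratios with rostral signal over caudal signal, the median of each array being set to 0, so a negative value means less signal from rostral RNA. The ratios carry no absolute level, and in pooled tissue fewer expressing cells and less RNA per cell cannot be told apart. Between 17998 and 20997 probes had a value on an array. The robust SD of the ratios averaged 0.74 on the C57 arrays and 0.49 on the MF1 arrays. Each array held 1 strain, so strain and set of arrays cannot be told apart.

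No source used here gives the numerator of the deposited ratios, and Cy5 over Cy3 was assumed, so the direction of every ratio is inferred. Genes with a gradient known from the mouse cortex, Nr2f1 left out, were set beside that assumption. The caudal reference genes Lhx2, Fgfr3, Emx2 and Crym had a median ratio of -0.22, against 0.19 for the 9 rostral reference genes. The caudal median lay below the rostral one in 6 of 6 pools, but was only -0.03 in MF1 pools 1 and 3. Lhx2 and Fgfr3 were below 0 in 6 of 6 pools, while Emx2 and Crym had 3 pools on either side. Of the 9 rostral genes 6 had means above 0 and 3 below. These lists were chosen with earlier results of these arrays known and are not independent evidence of the direction. The size of each Nr2f1 ratio and its p-value are the same under either convention, and only the sign would turn.

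Nr2f1 had a ratio below 0, with less signal from rostral than from caudal cortex, in 6 of 6 pools. The mean of both probes was -1.89, -1.48 and -1.51 in C57 pools 1 to 3, against -0.49, -0.57 and -0.89 in MF1 pools 1 to 3. All C57 pools lay below all MF1 pools. From the lowest the order was C57 pools 1, 3 and 2, then MF1 pools 3, 2 and 1. The neighbours C57 pools 3 and 2, and MF1 pools 2 and 1, lay closer together than the SD within their strain. Over both strains the mean was -1.14 ± 0.57 (SD, n = 6), a signal 2.20-fold lower rostrally. Features with a value below 0 in 6 of 6 pools made up 2.5% of those measured in 6 pools, and features with a mean at or below -1 made up 0.652% of those tested.

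With limma on pool means the ratio over both strains had an SE of 0.12 and a 95% confidence interval of -1.42 to -0.85. It did not pass adjusted over all features. The unadjusted p was 3.73e-05, the third smallest of 14418 features, and the adjusted p was 0.147 in limma. The adjusted threshold of 0.05 was passed by 0 features (0%). At an unadjusted p under 0.05, 1295 features passed in limma, which is 8.98% of those tested. The 669 of these below 0 are 4.64% and the 626 above 0 are 4.34%. Limma on single arrays, with a dye term and the pool as a random block, gave Nr2f1 the smallest adjusted p of all features (0.00101) and passed 25. In that fit the consensus correlation within pools was 0.00624, so paired arrays counted almost as separate replicates. Limma on features complete on the 12 arrays gave Nr2f1 an adjusted p of 0.0388 and passed 6. An exact two-sided sign-flip test over the 6 pools gave p = 0.03125, the smallest that 6 pools allow, and p = 0.0625 adjusted over the 6 exact tests made on this gene.

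Probe A was below 0 on 12 of 12 arrays. On C57 arrays probe A read -1.67, -1.12 and -1.08 in pools 1 to 3 with rostral RNA in Cy5. With rostral RNA in Cy3 it read -2.39, -1.94 and -1.89. Every C57 value of this probe was below -1. On MF1 arrays probe A read -0.73, -1.44 and -1.51 with rostral RNA in Cy5, and -0.58, -0.69 and -1.47 with rostral RNA in Cy3. MF1 pool 1 was the weakest of these pools in both orientations, and the values of probe A on MF1 arrays overlapped those on C57 arrays.

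Probe B was also below 0 on 12 of 12 arrays. It read -1.93, -1.63 and -1.87 on C57 arrays with rostral RNA in Cy5. With rostral RNA in Cy3 it read -1.56, -1.23 and -1.21 on C57 arrays. On MF1 arrays it read -0.19, -0.12 and -0.48 with rostral RNA in Cy5, and -0.46, -0.04 and -0.09 with rostral RNA in Cy3. Every C57 value of probe B lay below every MF1 value, and its MF1 values ran from -0.48 to -0.04.

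**Figure D1:**
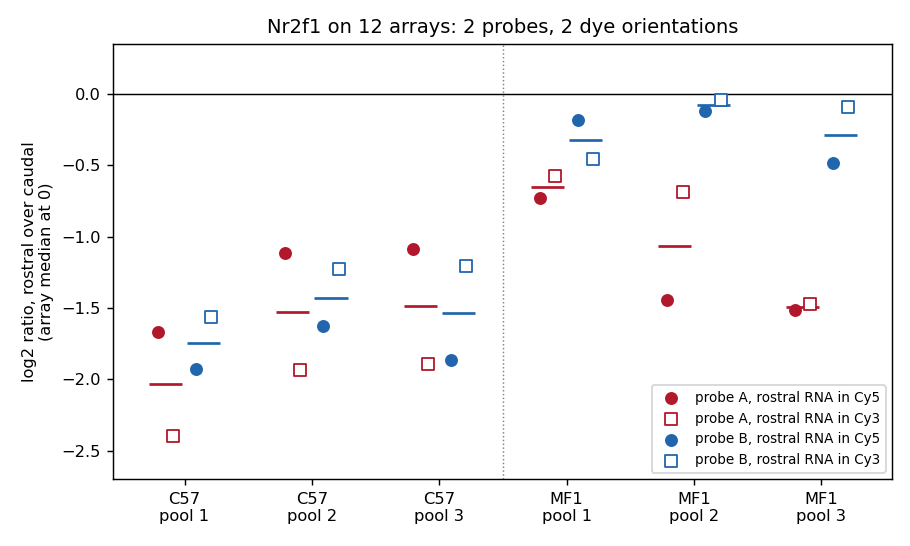
Log2 ratio of rostral over caudal cortex (array median at 0) for Nr2f1 on the 12 arrays, by pool, with C57 left and MF1 right; red is probe A and blue probe B, filled circles are arrays with rostral RNA in Cy5, open squares those with rostral RNA in Cy3, and bars are the means of a pool. All 24 values lie below 0, from -2.39 to -0.04.

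All 24 readings of Nr2f1, 2 probes on 12 arrays, were below the array median. Of the 11071 probes with a value on every array, 27 were below 0 on all 12, which is 0.244%, and both Nr2f1 probes were among them. Among the 447 genes with at least 2 such complete probes, Nr2f1 and Tenm2, an adhesion receptor of neurons, had at least 2 probes of this kind. The sign of the deposited values, before any centring, turned with the orientation on all of these readings but 1. The deposited value of probe A was below 0 on 6 of 6 arrays with rostral RNA in Cy5 and above 0 on 6 of 6 arrays with rostral RNA in Cy3. Probe B was below 0 on 6 of 6 arrays with rostral RNA in Cy5 and above 0 on 5 of 6 with rostral RNA in Cy3. The exception was MF1 pool 3 at -0.044, on an array whose median was -0.137.

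The ratio was farther from 0 in C57 than in MF1, and the difference did not pass the adjusted test. C57 averaged -1.63 ± 0.23 and MF1 -0.65 ± 0.21 (SD, n = 3 each), signals 3.08-fold and 1.57-fold lower rostrally. The difference, C57 minus MF1, was -0.97 with a 95% confidence interval of -1.54 to -0.41 (limma, unadjusted p = 0.00508, adjusted p = 0.693). An exact two-sided permutation test of 3 against 3 pools gave p = 0.1, the smallest it allows (0.12 adjusted over the 6 exact tests). Among features measured in 6 pools, 5.7% also had all C57 pools below all MF1 pools. Features below 0 for this difference at an unadjusted p under 0.05 made up 3.61% of those tested.

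Taken alone, neither strain passed over all features. In C57 the ratio of -1.63 had a 95% confidence interval of -2.03 to -1.22 (limma, unadjusted p = 3.50e-05, adjusted p = 0.177). In MF1 the ratio of -0.65 had a 95% confidence interval of -1.05 to -0.25 (limma, unadjusted p = 0.00678, adjusted p = 0.761). In C57 the adjusted limma p was 0.0359 on the arrays with rostral RNA in Cy3 alone and 0.0466 on those with rostral RNA in Cy5 alone. In these fits 188 of 17202 and 118 of 17174 features passed in C57, against 0 with both orientations. The unadjusted limma p of Nr2f1 was 1.20e-04 and 2.58e-04, larger than with both orientations. Within 1 orientation, dye and tissue cannot be told apart. At an unadjusted p under 0.05, the features below 0 were 5.48% of those tested in C57 and 1.98% in MF1. When arrays were scaled to a common spread, C57 averaged -1.32 and MF1 -0.80, and the difference between the strains was -0.52 (limma, adjusted p = 0.906). The C57 arrays had both the wider spread of ratios and the Nr2f1 ratio farther from 0, and the part of that spread in the strain difference was not tested.

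By the mean of both probes, the place of Nr2f1 among all features of a pool was also lower in C57. Counted from the lowest ratio, it stood at 1.0%, 3.06% and 1.95% of the features measured in C57 pools 1 to 3. In MF1 pools 1 to 3 it stood at 12.5%, 6.59% and 3.95%. By this mean all C57 pools placed it lower than any MF1 pool. By probe A alone it stood at 0.78%, 2.89% and 2.04% in C57 pools 1 to 3, against 8.19%, 2.11% and 1.42% in MF1. By that probe the strains overlapped. By probe B alone it stood at 1.20%, 3.29% and 1.88% in C57, against 20.8%, 39.6% and 19.2% in MF1. By its mean over both strains 38 features ranked below Nr2f1. Of these 34 were measured in 4 or 5 pools and 4 in 6 pools. Below 0 in 6 of 6 pools were 3 of them, the protease gene Prss23, the defensin gene Defb29 and Ltbp1, a binder of latent TGF-beta. These 3, and the genes Rbm20 and Tenm2, were named after their values were seen. Their ratios were -1.23 ± 1.63 for Prss23, -1.17 ± 1.12 for Defb29 and -1.17 ± 0.47 for Ltbp1 (SD, n = 6). The highest pool value of Nr2f1, -0.49, was also taken as a limit, which Nr2f1 meets by construction. Apart from Nr2f1, 2 of 10596 features, the splicing regulator Rbm20 and Tenm2, were at or below it in all 6 pools.

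**Figure D2:**
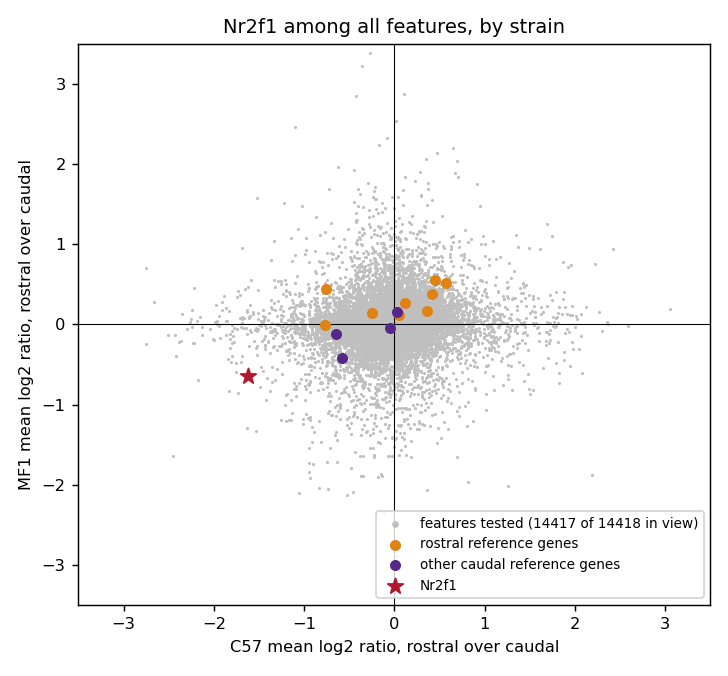
Mean log2 ratio of rostral over caudal cortex in C57 (x axis) and in MF1 (y axis) for the features tested (grey), the rostral reference genes (orange), the other caudal reference genes (purple) and Nr2f1 (star). Nr2f1 lies at -1.63 in C57 and -0.65 in MF1, lower on both axes than any reference gene shown.

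The probes of Nr2f1 lay close together in C57 and apart in MF1, a difference whose exact permutation test over 3 pools per strain cannot go below p = 0.1. In C57 probe A averaged -1.68 ± 0.30 and probe B -1.57 ± 0.16 (SD, n = 3). In MF1 probe A averaged -1.07 ± 0.42 and probe B -0.23 ± 0.13. The difference, probe A minus probe B, was -0.29, -0.10 and 0.05 in C57 pools 1 to 3, against -0.33, -0.99 and -1.21 in MF1 pools 1 to 3. Probe A was lower than probe B in 5 of 6 pools, and the gap in each MF1 pool was larger than in any C57 pool.

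Over 6 pools probe A minus probe B averaged -0.48 ± 0.50 (SD, n = 6), and an exact two-sided sign-flip test gave p = 0.0625, adjusted to 0.09375 over the 6 exact tests. Between the strains this quantity differed by 0.73, C57 minus MF1, with an exact permutation p of 0.1, again the smallest possible and not among the 6 adjusted tests. Each probe alone, tested against 0, gave the same exact sign-flip p of 0.03125 as their mean. As features of their own in limma, probe A had a ratio over both strains of -1.38 (adjusted p = 0.128) and probe B of -0.90 (adjusted p = 0.192). The strain difference was -0.61 by probe A and -1.34 by probe B (limma, adjusted p of 0.895 and 0.459). The MF1 signal was 2.10-fold lower rostrally by probe A and 1.17-fold lower by probe B, so the size of the MF1 ratio depends on the probe. The position of either probe on the transcript was not analysed here.

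In C57 pools the readings of the probes differed between dye orientations, with opposite signs. The dye part of a reading is the rostral over caudal ratio with rostral RNA in Cy5 minus that with rostral RNA in Cy3, divided by 2. It was 0.36, 0.41 and 0.40 for probe A in C57 pools 1 to 3. For probe B it was -0.18, -0.20 and -0.33 in the same pools. A positive dye part means a higher ratio of Cy5 over Cy3 whichever tissue was in Cy5. In MF1 it was -0.08, -0.38 and -0.02 for probe A, and 0.14, -0.04 and -0.19 for probe B. The dye parts in C57 had a narrow spread, 0.39 ± 0.03 for probe A and -0.24 ± 0.08 for probe B (SD, n = 3). In MF1 they averaged -0.16 ± 0.19 for probe A and -0.03 ± 0.16 for probe B.

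In the mean of both probes the dye part was 0.08 ± 0.04 in C57, above 0 in 3 of 3 pools, and -0.10 ± 0.12 in MF1 (SD, n = 3). Over 6 pools these strain means of opposite sign averaged -0.0088 ± 0.12 (SD; exact two-sided sign-flip permutation p = 0.906). With rostral RNA in Cy5 alone the ratio of Nr2f1 over both strains was -1.15, and with rostral RNA in Cy3 alone it was -1.13 (limma, adjusted p of 0.122 and 0.107). These ratios differed by less than the SE of either. Among the probes with a value on every array, the size of the mean dye part had a median of 0.25 in C57 and 0.13 in MF1. It was larger than that of probe A for 31.6% of these probes in C57 and 41.2% in MF1. It was larger than that of probe B for 52.1% in C57 and 85.5% in MF1.

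**Figure D3:**
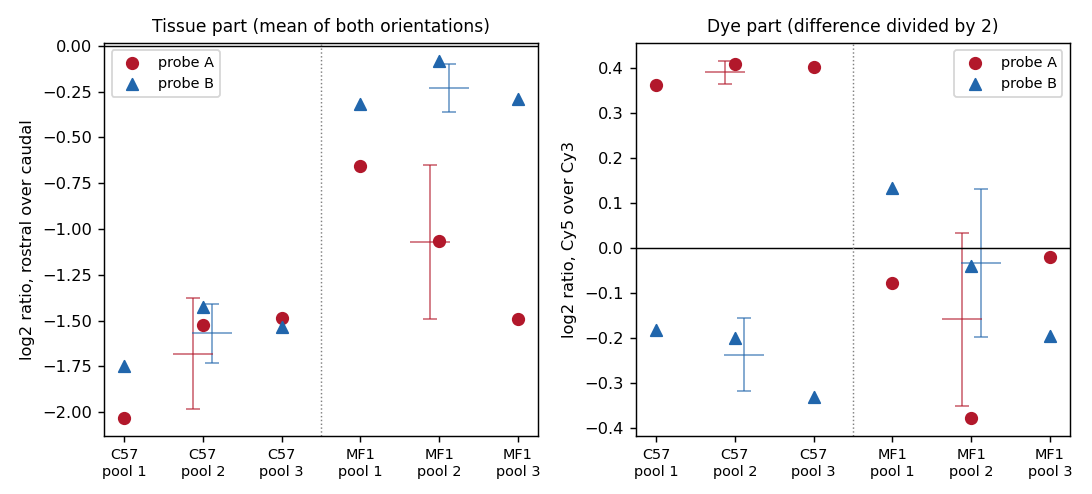
Left, the tissue part of Nr2f1 (log2 ratio of rostral over caudal cortex, mean of both dye orientations); right, the dye part (log2 ratio of Cy5 over Cy3, the difference between orientations divided by 2). Points are pools, C57 left and MF1 right, circles probe A and triangles probe B, and crosses with bars are the mean ± SD of 3 pools; in the left panel the probe means are -1.68 and -1.57 in C57 and -1.07 and -0.23 in MF1, and in the right panel they are 0.39 and -0.24 in C57.

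Of the other COUP-TF genes, Nr2f6, a related orphan receptor, was measured, and its ratio lay on the other side of 0 without passing. It averaged 0.04 in C57 and 0.41 in MF1, with 0.23 ± 0.34 over both strains (SD, n = 5; limma, adjusted p = 0.701). Nr2f2, the closest relative of Nr2f1 and known to overlap with it in caudal telencephalon, was not analysed here. Of the 48 other nuclear receptors, 34 were measured, with 19 above 0, 15 below and a median of 0.05, against 0.01 for all features. Adjusted over all features 0 of them passed in limma. At an unadjusted p under 0.05 in limma 2 lay above 0 and 1 below, 3 of 34, a share near the 8.98% of all features. Without centring, all features had a median of -0.18 and the receptors one of -0.14, so these medians are read relative to each other.

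The 3 receptors past the unadjusted threshold were Esr1, an oestrogen receptor, at 0.52 ± 0.68, Esrrb, an oestrogen-related receptor, at 0.40 ± 0.40, and Hnf4g, a relative of the hepatocyte receptor Hnf4a, at -0.61 ± 0.80 (SD, n = 6). Their limma adjusted p-values were 0.477, 0.555 and 0.524. Esr1 averaged 1.06 in C57 and -0.02 in MF1, and Hnf4g averaged -1.10 in C57 and -0.11 in MF1. The 3 probes of Esr1 averaged 0.56, 0.05 and 0.43, each over 4 pools, so its pool values rest on different probes. Hnf4g had the lowest mean of the 34 and still lay above Nr2f1.

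Genes that set up the rostrocaudal axis had ratios nearer 0 than that of Nr2f1. Of 15 listed upstream or parallel to it, 10 were measured, with 6 above 0, 4 below and a median of 0.05, or -0.14 with arrays not centred. Adjusted over all features 0 of them passed in limma, and at an unadjusted p under 0.05 there were 1 above 0 and 2 below. Of all features 4.34% were above 0 and 4.64% below at that threshold, 8.98% together. The rostral signalling factors Fgf8 and Fgf17, known to repress Nr2f1, were at 0.19 ± 0.25 and -0.05 ± 0.41 (SD, n = 6). Fgfr3, an FGF receptor known for a caudal gradient, was at -0.38 ± 0.37 and below 0 in 6 of 6 pools, with -0.65 in C57 and -0.12 in MF1.

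Among the transcription factors of progenitors, Lhx2, which sets cortical identity, was at -0.50 ± 0.13 and below 0 in 6 of 6 pools. Pax6, known to be high rostrally and laterally, was at 0.40 ± 0.18 and above 0 in 6 of 6 pools. The limma adjusted p was 0.341 for Lhx2, 0.471 for Pax6 and 0.484 for Fgfr3. Emx2, known like Nr2f1 for a caudal gradient, was at 0.09 ± 0.27, with 3 of 6 pools on either side of 0, and its relative Emx1 at 0.12 ± 0.53 (SD, n = 6). The pools of Emx2 lay between -0.22 and 0.42, each above every Nr2f1 pool, and with arrays not centred the mean of Emx2 was -0.10 and that of Emx1 -0.07. Of the signals of the cortical hem, the caudal midline source, Wnt3a was at -0.24 ± 0.29, Wnt8b at 0.25 ± 0.47 and Bmp4 at 0.01 ± 0.15.

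The genes of proteins known to work with nuclear receptors had ratios nearer 0 than that of Nr2f1. Of 12 listed 10 were measured, all above 0, with a median of 0.09, against 0.01 for all features. Adjusted over all features 0 passed in limma. At an unadjusted p under 0.05 in limma 1 was above 0 and 0 below. Of all features 4.34% were above 0 and 4.64% below at that threshold. With arrays not centred 7 of these 10 were below 0 and their median was -0.10, against -0.18 for all features. Bcl11b, a zinc finger protein that binds COUP-TF factors, was at 0.41 ± 0.24 and above 0 in 6 of 6 pools (limma, adjusted p = 0.482), with its probes at 0.14 and 0.68. Its relative Bcl11a was at 0.05 ± 0.34 (SD, n = 6). Zfpm2, known as FOG2, a corepressor of nuclear receptors, was at 0.39 ± 0.45 (SD, n = 5).

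The enzymes and coactivators of this group had means nearer 0 than their SD over pools. The histone deacetylases Hdac1, Hdac2 and Hdac3 were at 0.01 ± 0.32, 0.38 ± 0.56 and 0.09 ± 0.21 (SD, n = 6). The acetyltransferases Ep300 and Crebbp were at 0.15 ± 0.37 and 0.09 ± 0.24. The receptor coactivators Ncoa1 and Ncoa3 were at 0.04 ± 0.18 and 0.05 ± 0.63. Without centring all of these but Hdac2 had means below 0, while the median of all features was -0.18.

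Markers of areas and layers, which later in development depend on the area plan, did not pass either. Of 17 listed 11 were measured, with 7 above 0, 4 below and a median of 0.19. At an unadjusted p under 0.05 in limma 2 were above 0 and 1 below, and adjusted over all features 0 passed. Of all features 4.34% were above 0 and 4.64% below at the unadjusted threshold, 8.98% together. Epha7, an ephrin receptor with graded cortical expression, was at -0.53 ± 0.44 and below 0 in 5 of 6 pools (SD, n = 6; limma, adjusted p = 0.493). It was the member of this list nearest to Nr2f1 in its mean, with -0.53 in C57 and -0.54 in MF1.

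On the other side of 0 stood Rnd2, a GTPase of migrating neurons, at 0.35 ± 0.15 and above 0 in 6 of 6 pools (SD, n = 6; limma, adjusted p = 0.484). Tbr1, a factor of early deep-layer neurons, was at 0.53 ± 0.66 (adjusted p = 0.589 in limma). Fezf2, a factor of subcerebral projection neurons, was at -0.21 ± 0.27, and Sox5, a regulator of deep-layer neurons, at -0.10 ± 0.14. The cadherin Cdh6 was at 0.23 ± 0.23 and the adhesion receptor Tenm3 at 0.19 ± 0.36. Both have 2 probes, and those of Cdh6 averaged 0.30 and 0.16. Those of Tenm3 averaged 0.17 over 4 pools and 0.12 over 5 pools, so its pool values rest on different probes. The remaining members were Id2, an inhibitor of helix-loop-helix factors, at -0.10 ± 0.31, the LIM protein Lmo4 at 0.01 ± 0.78 and Crim1, a membrane protein of projection neurons, at 0.29 ± 0.64 (n = 5).

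Loss of Nr2f1 is known to alter MAPK, Akt and beta-catenin signalling in cortical progenitors of the mouse, and 6 of 10 listed genes of these pathways were measured. Of these 4 were above 0 and 2 below, with a median of 0.27. At an unadjusted p under 0.05 in limma 2 were above 0 and 0 below, where 4.34% of all features were above 0 and 4.64% below. Adjusted over all features 0 passed. The FGF-induced factor Etv5 was at 0.54 ± 0.05 and the feedback inhibitor Spry2 at 0.50 ± 0.19, both above 0 in 6 of 6 pools and so opposite in sign to Nr2f1 (SD, n = 6; limma, adjusted p of 0.328 and 0.409). The SD of Etv5 is that of the mean of its probes, whose own SDs were 0.38 and 0.32. The MAPK phosphatase Dusp6 was at 0.26 ± 0.24 (n = 5) and the beta-catenin gene Ctnnb1 at 0.29 ± 0.50. The kinase Akt1 was at -0.05 ± 0.19 and the PI3-kinase subunit Pik3r1 at -0.22 ± 0.43 (n = 5).

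Reference genes that belong to none of these groups were Crym, a thyroid hormone binding protein with a caudal bias, at -0.05 ± 0.31, and the rostral FGF genes and targets Fgf15 at -0.39 ± 0.61, Etv4 at 0.08 ± 0.31 and Spry4 at -0.16 ± 0.98 (n = 5). With arrays not centred Etv4 was at -0.11. Fgf15 was at -0.77 in C57 and -0.0047 in MF1. No reference gene of either list had a mean as far from 0 as that of Nr2f1.

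**Figure D4:**
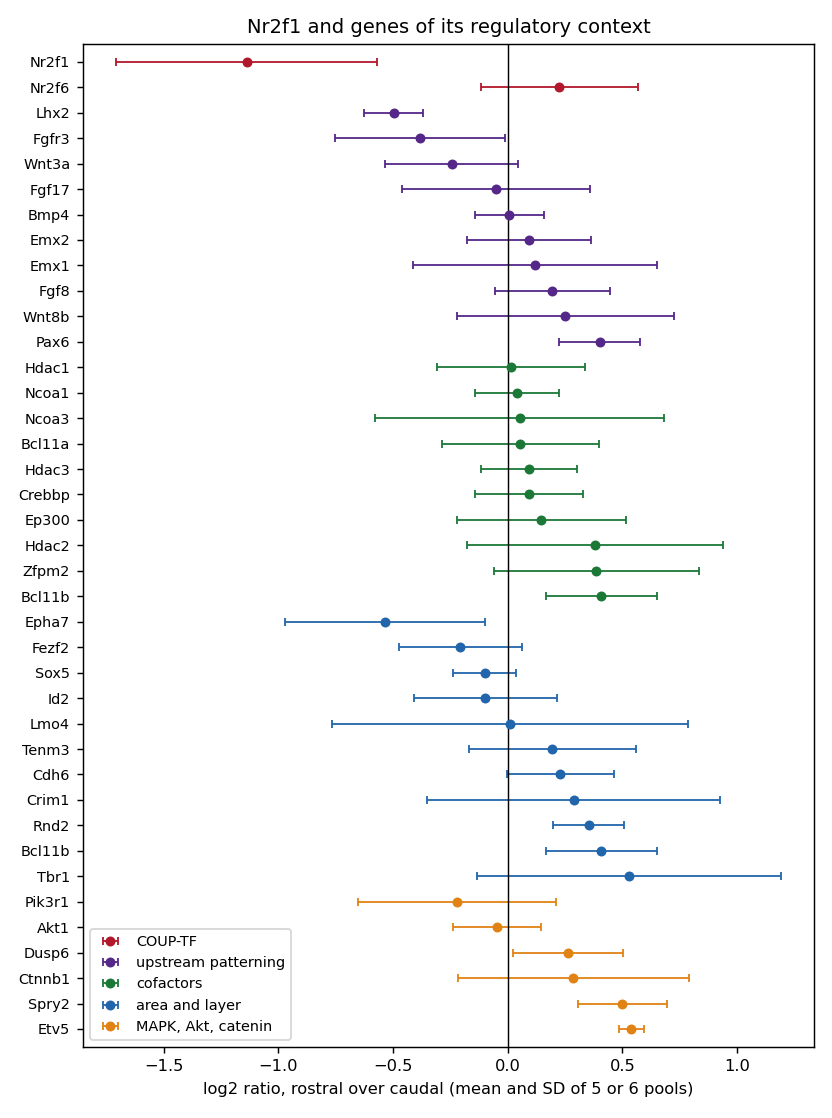
Mean log2 ratio of rostral over caudal cortex for Nr2f1 and the measured members of the COUP-TF, upstream patterning, cofactor, area and layer, and MAPK, Akt and catenin lists; points are means over both strains and bars are the SD over 5 or 6 pools. Bcl11b is in 2 of the lists and is drawn in both. Nr2f1 at -1.14 lies lowest, and the next lowest gene shown is Epha7 at -0.53.

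The genes whose pool ratios lay closest to those of Nr2f1 were sought among 8878 named genes measured in 6 pools, by the root mean square difference over the pools. This difference had a median of 1.33 over those genes. It was 0.480 for Cblif, the intrinsic factor that binds vitamin B12, 0.505 for Rpe, an enzyme of the pentose phosphate pathway, 0.519 for the receptor Notch2 and 0.544 for Tbcc, a tubulin folding cofactor. It was 0.577 for Cadps, a protein of vesicle priming, 0.601 for Abcg1, a cholesterol transporter, 0.609 for Rab27a, a GTPase of vesicle transport, and 0.610 for Zfp472, a zinc finger protein. Even the closest of these differed from Nr2f1 by more than the SD of Nr2f1 within a strain.

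All 8 had mean ratios below 0, from -0.85 for Notch2 to -0.65 for Rab27a, which the choice by closeness fixes. Each lay farther below 0 in C57 than in MF1, as Nr2f1 did. The choice by closeness over the pools favours this strain pattern, and can favour a like order of pools. Neither is separate evidence of a tie to Nr2f1. The pools of Notch2 were at -0.89, -1.74 and -1.68 in C57, against -0.26, -0.17 and -0.34 in MF1. Those of Cblif were at -1.45, -0.91 and -1.20 in C57, against 0.15, -0.10 and -0.51 in MF1, so that Cblif followed the order of the Nr2f1 pools within MF1 and was above 0 in 1 of them. Cadps was at -0.92 in C57 and -0.52 in MF1, and Abcg1 at -0.88 in C57 and -0.48 in MF1. Each of the 8 rests on 1 probe.

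**Figure D5:**
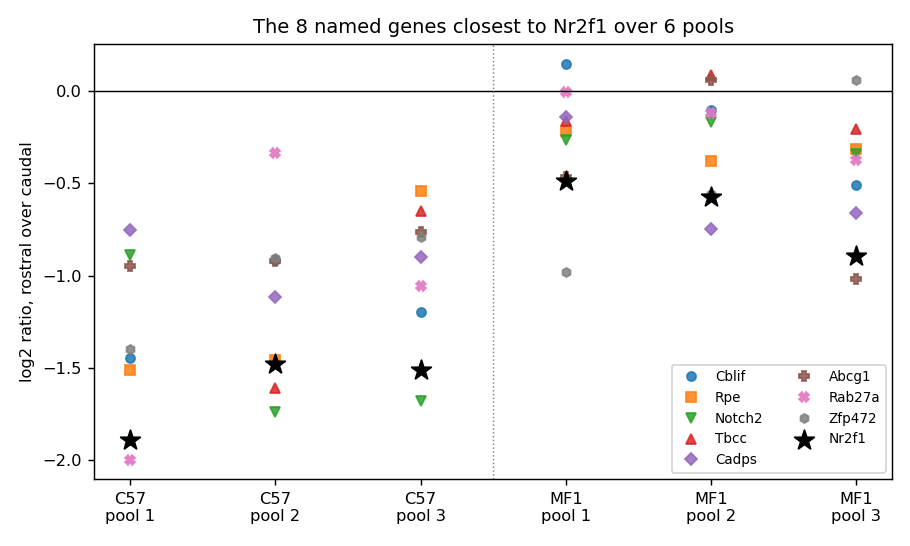
Log2 ratio of rostral over caudal cortex (y axis) in each of the 6 pools (x axis, C57 left and MF1 right) for Nr2f1 (star) and the 8 named genes of smallest root mean square difference from it. In each pool 1 or 2 of the 8 genes lie below Nr2f1 and the rest above it.

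Likeness can also be taken as the Pearson correlation of the deviations from the strain means, which leaves out the mean ratio and the strain difference. The highest were 0.999 for Fscn1, an actin-bundling protein, 0.999 for Sall2, a zinc finger factor, 0.998 for Tcrb-V8.2, a T cell receptor gene segment, and 0.998 for Pias3, a SUMO ligase. These are descriptions over 6 points that share arrays and scaling, with both strain means taken out. They are the highest of 8878 named genes. How high the largest of so many would be without a tie to Nr2f1 was not tested. The mean ratios of these genes were 0.38, 0.36, -0.01 and -0.03, so the genes that varied most like Nr2f1 between pools had means near or above 0. Tcrb-V8.2 is the average of 151 probes.

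Markers of other tissues that the dissected parts could hold were read beside Nr2f1. Ratios give no level, so whether a marker was present cannot be read from them, and of each list the part in the Nr2f1 result was not tested. In no list did a member pass in limma adjusted over all features, and the median of all features was 0.01. Markers of cortical cells had a median of 0.12 over 13 of 14 genes, with 11 above 0 and 2 below, and a median of -0.07 with arrays not centred. The members of smallest p were Lhx2 and the Notch target Hes5, at 0.49 ± 0.50 (SD, n = 6).

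By their median over both strains, the lists on the side of Nr2f1 were those of Cajal-Retzius cells, choroid plexus, meninges and the cortical hem. Cajal-Retzius markers had a median of -0.41 over 7 of 10 genes, with 2 above 0 and 5 below. The strain medians were -0.56 in C57 and -0.13 in MF1. Pool medians of these markers ran from -0.63 to 0.23 in C57 and from -0.13 to -0.12 in MF1, with 5 of 6 below 0. Their members of smallest p were Cdkn1a, a cell cycle inhibitor, at -0.41 ± 0.32 (n = 5) and the chemokine receptor Cxcr4 at -0.58 ± 0.59. Reln, the reelin gene made by these cells, was at 0.30 ± 0.43 and is named outside the rule, after its values were seen. Choroid plexus markers had a median of -0.08 over 7 of 10 genes, with 1 above 0 and 6 below, and pool medians between -0.30 and -0.10. Of these Ttr, the transthyretin gene, averaged -0.74 in C57 and -1.11 in MF1, and its 6 pools ran from -1.72 to 1.19 with a mean of -0.92 ± 1.09 (SD). The water channel Aqp1 was at -0.61 ± 0.70 and below 0 in 6 of 6 pools, with -0.85 in C57 and -0.37 in MF1.

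Markers of meninges and mesenchyme had a median of -0.10 over 12 of 14 genes, with 2 above 0 and 10 below. Their strain medians were -0.25 in C57 and 0.03 in MF1. The members of smallest p stood on either side of 0, with Zic1, a zinc finger factor, at 0.78 ± 0.31 and Twist2, a mesenchymal factor, at -0.45 ± 0.49. Markers of the cortical hem and hippocampal primordium had a median of -0.10 over 10 of 14 genes, with 4 above 0 and 6 below. Of these the hem factor Lmx1a was at -1.33 ± 1.06, with -1.83 in C57 and -0.84 in MF1 (SD, n = 4), and the Wnt agonist Rspo2 at 0.55 ± 0.65 (n = 5).

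Lists of tissues next to the cortex were spread about 0. Markers of the ventral telencephalon, 12 of 18 measured, had 6 genes on either side of 0, with Dlx5, a factor of interneuron precursors, at -0.63 ± 0.32 (n = 6) and Ebf1, a factor of striatal neurons, at 0.60 ± 1.42, with 1.82 in C57 and -0.61 in MF1 (SD, n = 4). Diencephalic markers had a median of 0.01 over 7 of 14 genes, with 4 above 0 and 3 below, with Irx1 at 0.29 ± 0.13 and Foxa2 at -0.41 ± 0.44 as members of smallest p. The probes of Foxa2 averaged -0.27, below 0 in 2 of 5 pools, and -0.50, below 0 in 6 of 6 pools. With arrays not centred each of the 7 tissue and cell type lists named here had a median below 0, as did all features at -0.18.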

How the data were processed

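The deposited table held 1 log2 ratio per probe and array, with no spot intensities, and per the values the authors' ratios reached a ceiling of 16.61, the log2 of 100000. No source used here says how background and dyes were corrected or which dye was the numerator. The 701 values at that ceiling were set to missing, each array was centred on its median (-0.407 to 0.475 before), and arrays with rostral RNA in Cy3 were sign-turned. A pool entered as the mean of both orientations, a feature needed 2 pools per strain, and probes of a gene were averaged; 16864 probes had 1 symbol in the platform annotation and 139 had several and stayed unnamed. Pool means were fitted in limma 3.58.1 (R 4.3.3, lmFit then eBayes, with strain means) with Benjamini-Hochberg adjustment over all features, a script tested on simulated data. A gene's mean over both strains gave each strain equal weight, while its SD was taken over the pools without weights. Where the strains had unequal numbers of pools, that mean is not the plain mean over pools. Exact permutation tests used scipy 1.17.1. Without intensities, the number of arrays limits the precision.

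Nr2f1, the gene lists and the tests were chosen with earlier results of these data known. The genes named were Nr2f1, every measured member of the COUP-TF, cofactor, patterning, area and layer, signalling and reference lists, nuclear receptors at an unadjusted p under 0.05, the 2 members of smallest p in each marker list, and the 8 and 4 genes most like Nr2f1. Same-numbered pools of the strains correlated at -0.14, 0.06 and -0.004, and the highest correlation of differently numbered pools was 0.15. Values this low cannot show whether same-numbered pools belong together, and the fit reported here did not pair them.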

Additional observations from a re-analysis of the deposited data

Results flagged for a closer look

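The dye part of probe A, the Cy5 over Cy3 shift of its log2 ratio, lay above 0 in all 3 C57 pools and below 0 in all 3 MF1 pools. It was 0.36, 0.41 and 0.40 in C57 pools 1 to 3, against -0.08, -0.38 and -0.02 in MF1 pools 1 to 3, a difference of 0.549 between the strain means, C57 minus MF1. This difference was not tested. Of the 6 groups of 6 arrays examined for an array apart from the rest, 0 held one.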

How the results depend on the processing

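Under the 18 settings other than the turned sign, Nr2f1 stayed below 0 over both strains, in C57, in MF1 and in the difference C57 minus MF1. Over both strains it passed in limma on the 12 arrays (-1.14, adjusted p = 0.00101, with 25 features passed) and on features complete on the 12 arrays (-1.14, adjusted p = 0.0388, with 6 passed), against 0 features in the fit the report gives. In C57 it passed in limma on the 12 arrays (-1.63, adjusted p = 0.000907, with 11 features passed). In C57 it also passed in limma with rostral RNA in Cy3 alone (-1.70, adjusted p = 0.0359, with 188 passed). With rostral RNA in Cy5 alone it passed in C57 too (-1.55, limma adjusted p = 0.0466, with 118 passed). In the fit on the 12 arrays the consensus correlation within pools was 0.00624, so paired arrays counted almost as separate replicates. Why Nr2f1 passed in the other settings was not tested. With the sign turned the ratios were 1.14 over both strains, 1.63 in C57, 0.65 in MF1 and 0.97 for the difference, by construction. Leaving out 1 pool at a time gave -1.18 to -1.07 over both strains, -1.70 to -1.49 in C57, -0.73 to -0.53 in MF1 and -1.10 to -0.84 for the difference, and 0 features passed over both strains. With the replicate block, limma gave -1.14 over both strains (adjusted p = 0.728). The MF1 ratio was -1.07 by probe A and -0.23 by probe B, and the difference was -0.61 by probe A and -0.52 with arrays scaled. Over both strains the ratio was -1.33 with arrays not centred and -1.06 with arrays scaled. Signal over background is unknown here.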
